A study of Mus musculus with 45 samples.

Results

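The genes of the subcortical maternal complex and the maternal NLRP genes were followed by symbol through the 18 RNA-seq libraries of the study. The 9 members are *Nlrp5*, *Ooep*, *Tle6*, *Khdc3*, *Padi6*, *Zbed3*, *Nlrp2*, *Nlrp4f* and *Nlrp14*, out of 55385 genes in the tables, and all 9 were found. The rule uses their symbols and no measured value, though the set was chosen with earlier results of these data known. At the late two-cell stage, where embryos still hold RNA from the oocyte, 1 of the 9 genes, *Zbed3*, was called after degradation of GABPA, and it rose, with 1.32% of all genes tested higher and 7.24% lower. *Nlrp4f* was called higher as well under some of the alternative settings. *Tle6*, *Ooep*, *Khdc3*, *Nlrp4f* and *Zbed3* were also detected well after the two-cell stage. All 5 fell after GABPA degradation in 2iES cells, with 28.1% of all genes tested lower, and all but *Zbed3* fell in the E4.5 ICM, with 38.5% of all genes tested lower. *Tle6* had the largest fall of the 5 in 2iES cells and of the other 4 in the E4.5 ICM. The 2iES calls of *Zbed3*, *Ooep* and *Nlrp4f* were not kept in every fit that left out a dTAG13 library. In the E4.5 ICM *Nlrp4f* fell in counts, while its FPKM overlapped between the groups.

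All libraries carry *Gabpa*-dTAG alleles, in which the transcription factor GABPA is fused to a tag that the small molecule dTAG13 directs to degradation, so that the DMSO controls hold the same alleles. Embryos came from in vitro fertilization and were cultured with 1 μM dTAG13 or with DMSO, from 6 to 30 hpf for the late two-cell stage (3 libraries each), from 42 hpf for morulae (2 each), and from 84 to 100 hpf for the E4.5 ICM (2 each). The E4.5 ICM is the mixture of epiblast (EPI) and primitive endoderm (PrE) cells left after immunosurgery has removed the trophectoderm (TE). 2iES cells are ES-E14 mouse embryonic stem cells grown with 2i and LIF, a line derived from single clones, treated with 0.5 μM dTAG13 for 24 h or with DMSO (2 each). No library without the tag, without culture, or from oocytes or zygotes is among the samples used here, and stage and day of collection cannot be told apart. Expected counts summed to between 9457933 and 27660132 per library, with morulae the lowest at 9457933 to 12382705. *Gabpa* messenger RNA itself was higher with dTAG13, from an FPKM of 111, 125 and 90.9 to 170, 153 and 163 at the late two-cell stage, which does not check the treatment, since dTAG13 acts on the protein.

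The subcortical maternal complex is a set of proteins that accumulates under the cell membrane of the growing oocyte and is inherited by the cleaving embryo. NLRP5 (also called MATER), OOEP (FLOPED), TLE6 and KHDC3 (FILIA) form its core, PADI6, ZBED3, NLRP2 and NLRP4F are associated with it, and loss of core proteins in the mother arrests embryos in early cleavage. NLRP5, NLRP2, NLRP4F and NLRP14 belong to the NLR family of proteins, in which many members are expressed in the oocyte, while OOEP and KHDC3 hold a KH-type domain, TLE6 is a relative of the Groucho co-repressors, PADI6 is a member of the peptidylarginine deiminases and ZBED3 is a BED-type zinc finger protein. PADI6 is required for the cytoplasmic lattices, the fibres that store maternal protein in the egg.

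By the GENCODE annotation of GRCm38, all 9 genes are protein coding, and 3 of them lie on chromosome 7, *Nlrp5* from 23385889 to 23441922 on the plus strand, *Nlrp2* from 5298547 to 5351035 on the minus strand and *Nlrp14* from 107166990 to 107198102 on the plus strand. *Ooep* (78376109 to 78378725, minus strand) and *Khdc3* (73101836 to 73104438, plus strand) lie on chromosome 9, and *Nlrp4f* (65177111 to 65205977, minus strand) and *Zbed3* (95323612 to 95337841, plus strand) on chromosome 13. *Tle6* lies on the minus strand of chromosome 10 from 81590904 to 81601073 and *Padi6* on the minus strand of chromosome 4 from 140727355 to 140742643. *Khdc3* shares 36.7% of its 31-base words with *Gm20509*, a gene on the same strand that overlaps 38.5% of its exonic bases, so RSEM divides reads between the 2 genes. *Gm20509* received between 5.59 and 103 expected counts in morulae, against 7249 to 12120 for *Khdc3*. *Nlrp4f* shares 15.9% of its words with other genes, mainly *Nlrp4g*, and *Nlrp5* shares 12.4%, mainly with *Nlrp5-ps*. At low counts this sharing leaves *Nlrp5* uncertain, since *Nlrp5-ps* received 12.3 to 14.7 expected counts in the E4.5 ICM, against 6.48 to 20.7 for *Nlrp5*.

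GABPA binds the ETS-type motif CCGGAAG, and promoter windows are shown for 4 of the genes that fell after loss of that factor in 2iES cells, *Tle6*, *Zbed3*, *Khdc3* and *Ooep*. RefSeq promoter windows of 300 bases, 250 before and 50 after each start site on GRCm38.p6, were found for 8 of the 9 members, all but *Nlrp14*, and number 12. The letters CCGGAAG occur on either strand in 2 of the 12 windows (16.7%), those of an inner start site of *Tle6* and of *Zbed3*, against 2910 of 32851 windows over all genes (8.86%). In *Tle6* the match lies at chr10:81597473-81597479, 112 bases before the inner start site, and inside an exon of a non-coding *Tle6* transcript of the GENCODE annotation. In *Zbed3* it spans the inner start site, at chr13:95326764-95326770. A match is a description of the letters and not a binding site. Below, 7 windows are given 5′ to 3′ on the strand of the gene, with CCGGAAG in capitals, up to 20 bases after the start site and without other bases annotated as untranslated region. *Nlrp4f*, which also fell, is left out since this leaves 20 bases of its window, and *Nlrp5*, which rose in the E4.5 ICM from few counts, holds no match in its 2 windows. The windows given are *Tle6* at the inner start (chr10:81597348-81597617) and at the outer start (chr10:81600881-81600978), *Zbed3* at the inner start (chr13:95326517-95326786) and at its 2 other starts (chr13:95323355-95323624 and chr13:95324575-95324844), *Khdc3* (chr9:73102205-73102417) and *Ooep* (chr9:78378726-78378838).
Tle6 inner start: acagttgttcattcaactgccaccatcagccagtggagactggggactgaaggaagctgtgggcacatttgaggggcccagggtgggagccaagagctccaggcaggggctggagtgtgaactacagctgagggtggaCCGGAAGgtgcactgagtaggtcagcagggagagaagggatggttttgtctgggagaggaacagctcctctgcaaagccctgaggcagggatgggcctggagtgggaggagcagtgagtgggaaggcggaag
Tle6 outer start: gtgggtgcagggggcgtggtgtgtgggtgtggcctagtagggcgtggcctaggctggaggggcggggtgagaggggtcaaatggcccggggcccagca
Zbed3 inner start: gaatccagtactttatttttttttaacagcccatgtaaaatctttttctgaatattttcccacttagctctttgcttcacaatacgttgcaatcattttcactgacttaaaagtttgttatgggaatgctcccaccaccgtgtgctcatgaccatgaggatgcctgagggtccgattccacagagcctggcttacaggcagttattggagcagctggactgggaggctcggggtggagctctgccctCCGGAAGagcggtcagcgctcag
Zbed3 outer start: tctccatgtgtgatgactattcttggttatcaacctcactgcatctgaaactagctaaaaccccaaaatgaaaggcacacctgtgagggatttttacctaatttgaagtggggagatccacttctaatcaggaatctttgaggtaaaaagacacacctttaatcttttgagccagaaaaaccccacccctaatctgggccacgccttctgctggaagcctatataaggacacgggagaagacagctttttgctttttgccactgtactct
Zbed3 middle start: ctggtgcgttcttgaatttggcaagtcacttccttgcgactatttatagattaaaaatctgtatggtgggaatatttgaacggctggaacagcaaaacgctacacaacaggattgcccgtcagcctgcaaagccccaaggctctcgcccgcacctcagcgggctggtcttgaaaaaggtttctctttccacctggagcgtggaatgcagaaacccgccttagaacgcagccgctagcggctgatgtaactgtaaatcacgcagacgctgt
Khdc3: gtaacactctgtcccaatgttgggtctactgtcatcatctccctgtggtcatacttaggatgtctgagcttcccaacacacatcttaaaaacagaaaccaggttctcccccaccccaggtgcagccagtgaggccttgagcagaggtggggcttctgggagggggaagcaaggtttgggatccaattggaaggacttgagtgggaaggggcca
Ooep: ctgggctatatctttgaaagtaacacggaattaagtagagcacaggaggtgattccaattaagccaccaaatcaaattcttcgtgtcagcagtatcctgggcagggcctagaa

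The level of each gene in the DMSO libraries was first followed from the late two-cell stage to 2iES cells, to ask when the maternal complement is lost and which genes are expressed again. Levels are in FPKM, which scales fragments to the length of the gene and to library depth and so allows genes to be compared. Tests of stages used the 9 DMSO libraries in one fit of edgeR's quasi-likelihood model on expected counts with Benjamini-Hochberg adjustment over 19830 genes, and a gene was called at an adjusted p-value under 0.05. From the late two-cell stage to the morula, 8 of the 9 members fell, with 38.0% of all genes tested lower, and *Khdc3* alone of the 9 rose, with 31.2% of all genes higher. The median log2 fold change of the 9 was -5.0, against -0.28 over all genes tested.

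Among the NLRP genes, *Nlrp14* stood at 87.4, 72.1 and 99.8 FPKM in late two-cell embryos and at 1.86 and 2.26 in morulae. *Nlrp4f* stood at 53, 55.7 and 53.4 FPKM and then at 2.82 and 3.41. *Nlrp5* stood at 18.4, 16.3 and 18.9 FPKM and then at 0.13 and 0.22. Every late two-cell library was above every morula library for these 3 genes, with log2 fold changes of -6.01 for *Nlrp14* (standard error 0.26, adjusted p = 2.10e-09), -5.0 for *Nlrp4f* (0.29, 2.06e-08) and -6.60 for *Nlrp5* (0.35, 1.07e-08). *Nlrp2* was the lowest of the 9 at the late two-cell stage, at 4.36, 4.21 and 2.44 FPKM, and held 3 counts in 1 morula library and 0 in the other, which makes it at least 34.3-fold lower there, taken against 3 counts per library. In the E4.5 ICM and in 2iES cells *Nlrp2* was at 0 counts in 7 of the 8 libraries and at 1 in the remaining one.

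From the morula to the E4.5 ICM, 4 members rose and 2 fell, with 24.6% of all genes tested higher and 21.0% lower (median log2 fold change of the members -0.12, and 0.00 over all genes). *Nlrp2*, on at most 3 counts in these libraries, was called lower as well by DESeq2 (adjusted p = 0.0395) and by edgeR with no count filter (0.0397). From the E4.5 ICM to 2iES cells, 2 rose and 5 fell, with 21.9% of all genes higher and 20.7% lower (medians -0.81 and 0.00). With the study's cut-offs of a 2-fold change and a mean FPKM of 1 in 1 group added, this last step held 2 that rose and 1 that fell, with 12.0% and 12.7% of all genes. The NLRP genes did not follow one course. *Nlrp14* fell further from the morula to the E4.5 ICM, to 0.36 and 0.35 FPKM (log2 fold change -1.81, standard error 0.32, adjusted p = 6.13e-04 by edgeR), and *Nlrp5* stayed between 0.03 and 0.22 FPKM in the 6 later DMSO libraries. *Nlrp4f* rose again, to 6.07 and 4.27 FPKM at E4.5 (1.31, 0.30, 0.0037) and, in 2iES cells, to 21.9 and 32.3 (2.98 from the E4.5 ICM, 0.26, 4.08e-06). The levels of *Nlrp4f* in 2iES cells were below those at the late two-cell stage in both DMSO libraries.

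Of the core and associated proteins of the complex, *Zbed3* had the highest FPKM of the 9 genes at the late two-cell stage, at 226, 223 and 209. It fell to 2.53 and 1.72 FPKM in morulae (log2 fold change -6.71, standard error 0.21, adjusted p = 4.88e-10 by edgeR), was at 8.24 and 7.79 in the E4.5 ICM (1.81 from the morula, 0.20, 1.83e-05), and at 3.52 and 3.13 in 2iES cells. No library overlapped between any of these 4 stages for *Zbed3*, in the order late two-cell, E4.5 ICM, 2iES and morula. *Padi6* fell at every step, from 21.5, 24.2 and 19.7 FPKM to 4.20 and 2.58 in morulae, 0.40 and 0.55 in the E4.5 ICM, and 0.05 and 0.17 in 2iES cells. The last of these steps for *Padi6* (adjusted p = 0.0206) is lost without E4.5 ICM DMSO replicate 2 or 2iES DMSO replicate 1, with adjusted p-values of 0.123 and 0.165. *Tle6* stood at 35.1, 23.8 and 28.5 FPKM, fell to 3.5 and 2.77 in morulae (-3.29, 0.31, 1.25e-06), and rose to 15.8 and 14.6 in the E4.5 ICM (2.7, 0.32, 3.13e-05). In 2iES cells *Tle6* was lower again, at 8.07 and 5.21 FPKM (-0.92, 0.27, 0.0169), a call that is lost without either E4.5 ICM DMSO library or without 2iES DMSO replicate 2, where the adjusted p was 0.0806 to 0.117.

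*Ooep* differed from the NLRP genes in that its lowest stage still held a level near that of the two-cell embryo. It stood at 20.7, 20.6 and 19.0 FPKM in late two-cell embryos and at 14.7 and 13.6 in morulae (log2 fold change -0.47, standard error 0.14, adjusted p = 0.00817 by edgeR). It then reached 70.4 and 66.9 FPKM in the E4.5 ICM (2.15, 0.15, 4.85e-07) and 103 and 106 in 2iES cells (1.08, 0.14, 9.23e-05). The 2iES level of *Ooep* was the highest of its 4 stages, and no 2 stages overlapped.

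*Khdc3* went against the other 8 genes. It had 5.11, 4.48 and 5.82 FPKM in late two-cell embryos and 515 and 651 in morulae, a 148-fold rise (log2 fold change 7.21, standard error 0.19, adjusted p = 2.92e-10 by edgeR). At 612 and 604 FPKM in the E4.5 ICM its libraries overlapped those of the morula (-0.12, 0.17, 0.611), and it fell to 24.2 and 21.1 in 2iES cells (-4.29, 0.20, 4.03e-08). The length that RSEM gave to *Khdc3*, weighted over its transcripts, was 1224 to 1376 bases at the late two-cell stage and 1512 to 1631 bases in all later libraries. FPKM divides by this length, while the test used counts, which rose from between 97.2 and 155 to between 7249 and 10551.

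**Figure D1:**
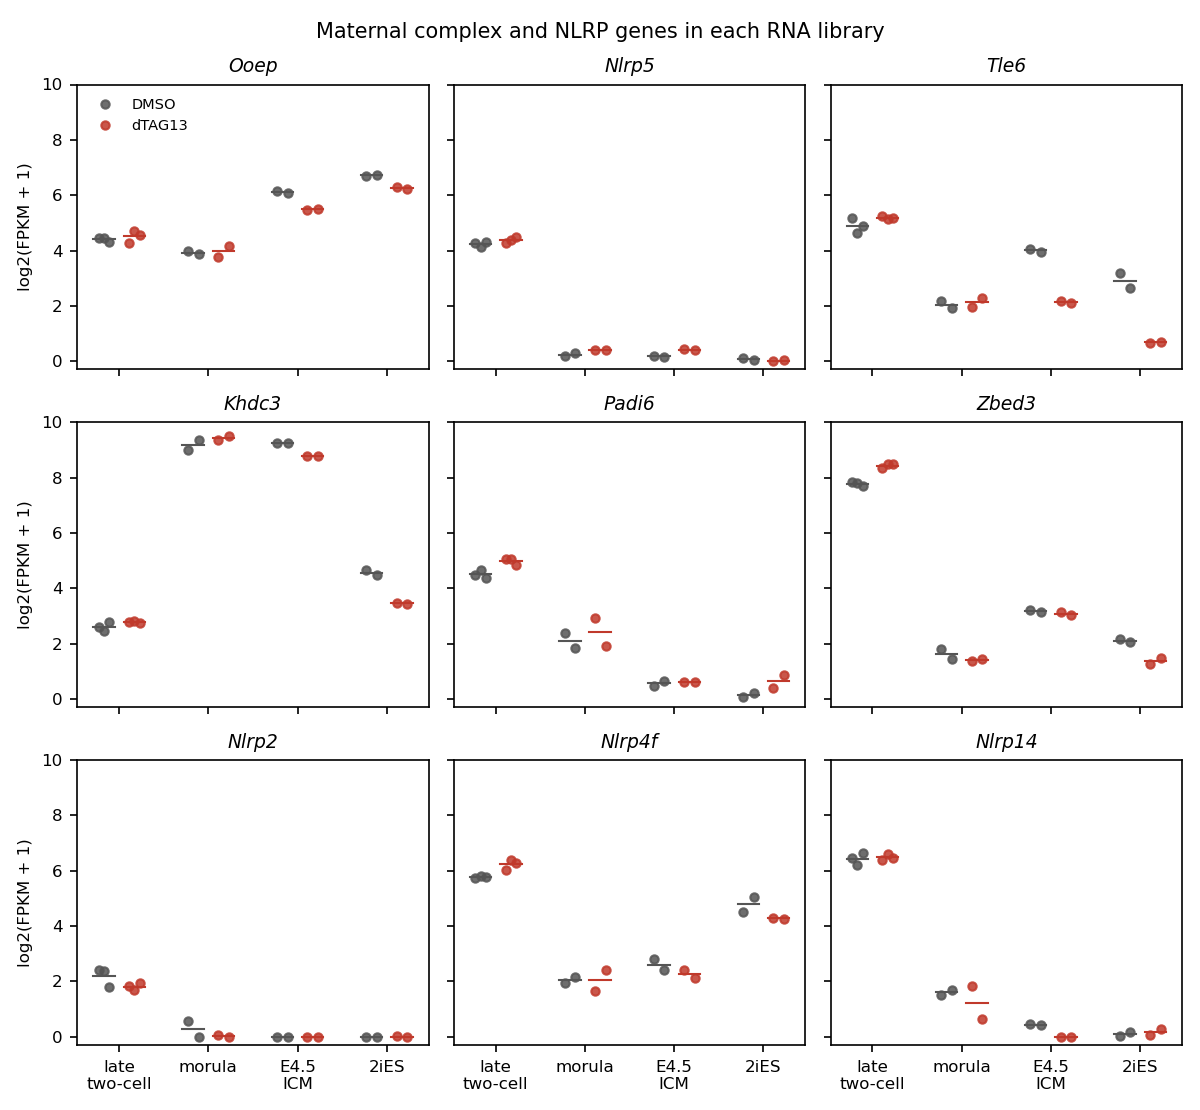
Each point is 1 RNA-seq library, in DMSO (grey) or dTAG13 (red), with log2(FPKM + 1) on the vertical axis, the 4 stages on the horizontal axis and a line at the mean of each group on that scale. *Nlrp5* and *Nlrp2* lie near 0 after the late two-cell stage and *Nlrp14* after the morula, *Khdc3* is highest in morulae and the E4.5 ICM, and *Ooep* is highest in 2iES cells.

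The makeup of the set therefore turned over. The summed TPM of the 9 genes was 413 to 449 in the late two-cell DMSO libraries, 414 to 540 in morulae, 650 to 651 in the E4.5 ICM and 137 in both 2iES DMSO libraries. *Zbed3* made up 45.8% to 50.1% of that sum in the DMSO libraries at the late two-cell stage and *Nlrp14* 16.2% to 21.9%. *Khdc3* made up 94.5% and 96.1% of it in morulae and 85.8% and 86.5% in the E4.5 ICM, and *Ooep* 64.1% and 63.1% in 2iES cells. The bars of the summed level show this change in makeup from stage to stage.

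**Figure D2:**
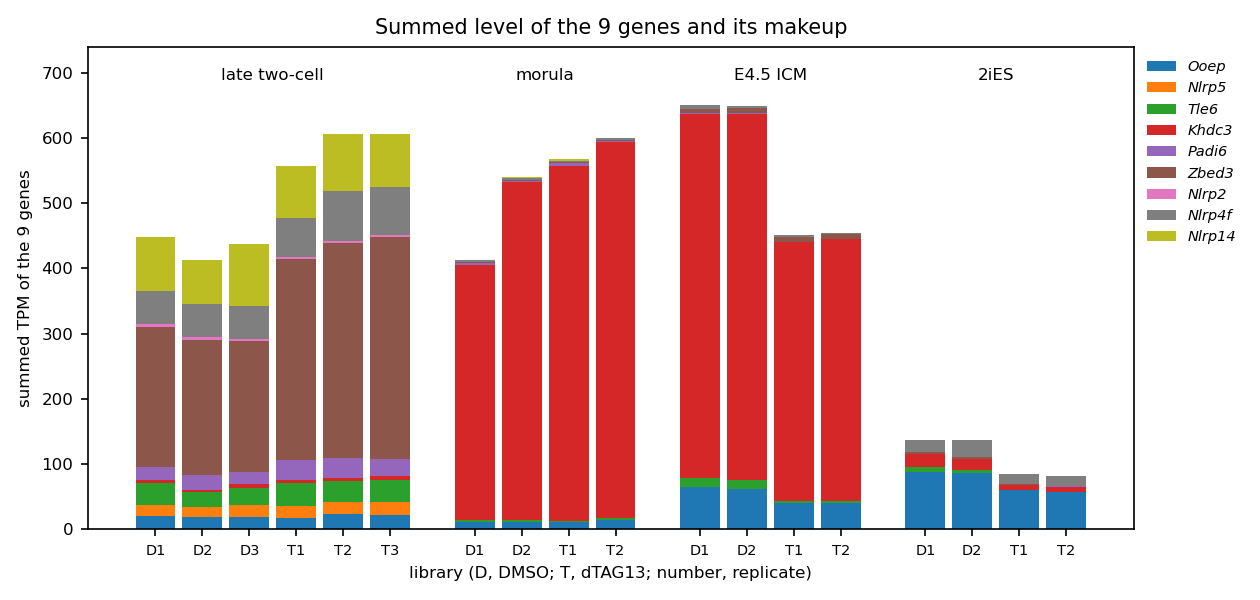
Bars give the TPM summed over the 9 genes in each of the 18 libraries, split by gene, for DMSO (D) and dTAG13 (T) replicates of each stage. *Zbed3* is the largest piece at the late two-cell stage, *Khdc3* in morulae and the E4.5 ICM and *Ooep* in 2iES cells, and the dTAG13 bars are higher than the DMSO bars in late two-cell embryos and morulae and lower in the E4.5 ICM and 2iES cells.

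The effect of GABPA degradation was then compared within each stage, each with its own fit of edgeR's quasi-likelihood model and adjustment over all genes tested there. At the late two-cell stage all 9 members were tested, of 17421 genes. *Zbed3* rose, and it was the 1 call among the 9 genes, with 1.32% of all genes tested higher and 7.24% lower. In FPKM, the DMSO libraries held 226, 223 and 209 and the dTAG13 libraries 324, 357 and 357. All 3 dTAG13 libraries were above all 3 DMSO libraries, and the log2 change was 0.58 (standard error 0.08, 95% interval 0.40 to 0.77, adjusted p = 0.00108 by edgeR), a 1.5-fold rise. *Zbed3* kept its call under each of the 12 alternatives that refit the model, but with a 2-fold change and a mean FPKM of 1 also required, 0 of the 9 passed in either direction, with 0.476% of all genes higher and 3.63% lower.

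*Nlrp4f* was also higher in every dTAG13 library, at 63.6, 82.7 and 77.1 FPKM against 53, 55.7 and 53.4, and its log2 change of 0.39 had a standard error of 0.13 (adjusted p = 0.103 by edgeR). It did not pass the threshold here, while it passed it with DESeq2 (adjusted p = 0.0393), with library totals as the scaling (0.0455), with no count filter (0.0397) and without dTAG13 replicate 1 (0.0279). *Padi6* likewise had no overlap, at 32.1, 32.1 and 27.7 FPKM against 21.5, 24.2 and 19.7, and its log2 change of 0.32 had a standard error of 0.14 (adjusted p = 0.218). No member was called lower, and none had an unadjusted p-value under 0.05 in that direction, with 0 also by DESeq2. The intervals bound what could have been missed. For *Nlrp14* (83.1, 95.9 and 86.4 FPKM with dTAG13) the 95% interval of the log2 fold change was -0.25 to 0.29, for *Nlrp5* (18.4, 19.9 and 21.4) -0.17 to 0.36 and for *Ooep* (18.1, 25.4 and 22.5) -0.30 to 0.41, and the groups of each overlapped. *Tle6* (37, 33.9 and 35 FPKM with dTAG13, interval -0.18 to 0.66), *Khdc3* (5.81, 5.98 and 5.63, -0.42 to 0.64) and *Nlrp2* (2.57, 2.19 and 2.82, -1.12 to 0.10) overlapped as well. The median log2 fold change over the 9 genes was 0.11, with 8 of 9 positive, against 0.02 over all genes tested.

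Other genes of the oocyte were set beside them from lists of relatives. Of 16 further oocyte genes in the tables, 15 were tested at the late two-cell stage, 2 rose and none fell, with a median log2 fold change of 0.22. They are *Bcl2l10*, a relative of BCL2 abundant in the egg, which went from 79.5 to 88.7 FPKM over the DMSO libraries to 117 to 153 (log2 fold change 0.61, standard error 0.12, adjusted p = 0.00975 by edgeR), and *Oosp1*, an oocyte-secreted protein (0.39, 0.09, 0.0201). Of 9 other NLRP genes of the oocyte, 8 were tested and 1 was called, *Nlrp4c*, which fell from 5.22 to 7.16 FPKM over the DMSO libraries to 3.56 to 4.39 (-0.76, 0.19, 0.0288). Unlike the other 7 NLRP genes tested, *Nlrp4c* did not fall from the late two-cell stage to the morula, where it had 8.86 and 9.64 FPKM with DMSO (0.57 from the late two-cell stage, 0.21, 0.0287). Of 10 paralogues of *Padi6*, *Tle6* and *Zbed3* that are expressed in somatic cells, 7 were tested and *Aes*, a short relative of the Groucho proteins, rose (1.34, 0.32, 0.0275), and none of the 4 KH-domain relatives and 3 partners of NLRP14 and the lattices was called. None of the 8 markers of the two-cell stage was called, while *Tnfaip6*, 1 of 8 cumulus cell markers, was higher with dTAG13 (4.49 and 9.19 mean FPKM), and 6 of those 8 markers were under 1 FPKM in each of the 6 libraries. The same marker list also rose in 2iES cells, a cultured line, from a sum of 0.55 to 0.78 FPKM with DMSO to 10.3 to 10.6 with dTAG13. There 1 of the 8 was tested and called higher (log2 fold change 4.06 by edgeR). All but *Tnfaip6* were under 1 FPKM in each dTAG13 library of 2iES cells. The part of *Tnfaip6* in the rise of *Zbed3* was not tested.

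**Figure D3:**
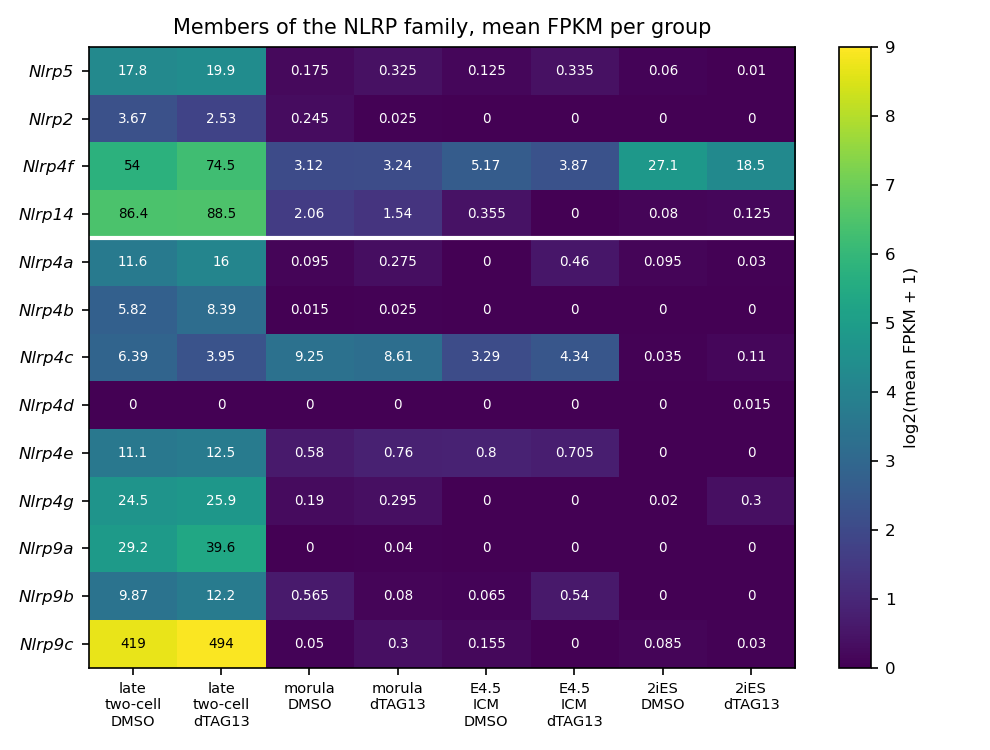
Colours give log2(mean FPKM + 1) and the printed numbers the mean FPKM in each of the 8 groups, for the 4 NLRP genes of the set above the white line and 9 other oocyte NLRP genes below it, with means under 0.01 printed as 0. *Nlrp4c* and *Nlrp4f* are the ones with a mean above 3 FPKM after the late two-cell stage, and *Nlrp9c* is the highest at that stage, with a DMSO mean of 419.

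In morulae, 8 of the 9 members were tested, of 13667 genes, and none was called, with 0.161% of all genes higher and 0.205% lower. No member had an unadjusted p-value under 0.05 by edgeR, and DESeq2 also called 0. *Khdc3* had 515 and 651 FPKM with DMSO and 663 and 718 with dTAG13, with no overlap and a log2 fold change of 0.30 (95% interval -0.12 to 0.72, adjusted p = 0.533 by edgeR). *Ooep* had 14.7 and 13.6 FPKM with DMSO and 12.8 and 17 with dTAG13 (interval -0.37 to 0.65), and *Tle6* 3.5 and 2.77 against 2.89 and 3.87 (interval -1.36 to 1.15), both with overlap. The counts of *Tle6* in these libraries were 16 to 23, and a 2-fold change in either direction lies within that interval. Of the genes related to the set, *Uhrf1*, which encodes the maintenance methylation factor UHRF1, fell from 16.4 and 14.4 FPKM to 5.76 and 6.27 (-1.30, standard error 0.22, adjusted p = 0.0210).

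In the E4.5 ICM, 8 members were tested, of 15840 genes. *Tle6*, *Nlrp4f*, *Ooep*, *Khdc3* and *Nlrp14* fell, 5 of 8, with 38.5% of all genes tested lower, and *Nlrp5* rose, with 38.4% of all genes higher. Counts of the 2 libraries of each group varied by 1.62 and 1.69 times the sampling noise, against 2.86 to 16.1 times in the other groups, and the labels do not say that they came from separate sets of embryos, so that p-values may measure technical spread alone. The median log2 fold change of the 8 was -0.62, against 0.01 over all genes tested. With a 2-fold change and a mean FPKM of 1 also required, *Tle6* and *Nlrp4f* fell and no member rose, with 13.2% of all genes lower and 12.1% higher.

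*Tle6* had 15.8 and 14.6 FPKM with DMSO and 3.5 and 3.27 with dTAG13. In FPKM, both dTAG13 libraries were within the range of the 4 morula libraries (2.77 to 3.87). In TPM, 1 of them, at 3.18, was above the morula range of 2.21 to 3.11. The log2 change in counts was -2.74 (standard error 0.18, adjusted p = 1.20e-16 by edgeR), a 6.67-fold fall. RSEM gave *Tle6* a length of 1021 and 1053 bases with DMSO and of 798 and 747 with dTAG13, so its FPKM fell less than its counts. *Ooep* had 70.4 and 66.9 FPKM with DMSO and 43.6 and 44.2 with dTAG13 (-0.71, 0.04, 4.23e-18), and *Khdc3* had 612 and 604 FPKM with DMSO and 438 and 439 with dTAG13 (-0.53, 0.02, 7.01e-22). The 4 libraries did not overlap for these 3 genes, though the falls of *Ooep* and *Khdc3* were 1.63-fold and 1.44-fold. How many of all genes separate in this way was not counted.

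For *Nlrp4f* the units disagree. Its counts were 150 and 125 with DMSO and 57 and 55 with dTAG13, which gave a log2 change of -1.25 with a standard error of 0.19 (adjusted p = 3.22e-07 by edgeR), while its FPKM, at 6.07 and 4.27 against 4.38 and 3.35, overlapped. RSEM gave *Nlrp4f* a length of 1363 and 1690 bases with DMSO and of 886 and 1035 bases with dTAG13, and the FPKM divides by it. *Nlrp14* had 20 and 21 counts with DMSO and 0 in both dTAG13 libraries, at least 6.63-fold lower when 3 counts per library are taken as the floor. *Nlrp5* rose from 9 and 6.48 counts to 20.7 and 19.3 (1.45, 0.46, 0.00452), a call that DESeq2 did not make (adjusted p = 0.094), and its highest FPKM here was 0.35. Without either dTAG13 library *Nlrp5*, and without either DMSO library *Nlrp14*, no longer held 10 counts in enough libraries to be tested. *Zbed3*, at 8.24 and 7.79 FPKM with DMSO and 7.89 and 7.09 with dTAG13, overlapped between the groups (95% interval of the log2 fold change -0.39 to 0.07, adjusted p = 0.190), and so did *Padi6*, at 0.40 and 0.55 against 0.51 and 0.51.

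Markers of the cell types moved in the same libraries. All 7 EPI markers fell, with a summed FPKM of 537 to 539 with DMSO and 216 to 225 with dTAG13, and 5 of 7 PrE markers rose and 2 fell (554 to 555 and 1081 to 1083). All 7 TE markers rose, from a sum of 73.0 to 78.2 FPKM to 850 to 856, with *Krt18* at a mean of 25.8 and 525 FPKM and *Cdx2* at 0.49 and 2.39. The study collected these ICMs at 100 hpf, which it calls the mid-blastocyst stage, and reports that EPI cell numbers did not yet differ between the treatments. The part of these markers in the falls of *Tle6*, *Ooep*, *Khdc3* and *Nlrp4f* was not tested. From the bulk libraries alone, fewer cells of a type and less RNA per cell cannot be told apart.

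Relatives of the set went in different directions in the E4.5 ICM. Of the other oocyte NLRP genes, 4 were tested and all 4 rose in counts, with 38.4% of all genes tested higher. Among them were *Nlrp9b* (0.07 and 0.54 mean FPKM, log2 fold change 2.60, standard error 0.51, adjusted p = 2.23e-05 by edgeR) and *Nlrp4a*, which was at 0 counts with DMSO and at least 10.8-fold higher with dTAG13. The FPKM of *Nlrp4e* overlapped, at 0.60 to 1.00 with DMSO and 0.36 to 1.05 with dTAG13. Of the KH-domain relatives, *Khdc1a* (0.39 and 0.40 FPKM against 3.18 and 3.40), *Khdc1b* (0 in both against 1.43 and 1.96) and *Khdc1c* rose, while *Dppa5a*, a gene of pluripotent cells, fell (-0.60, 0.02, 4.57e-27). All 3 lattice partners fell, with 38.5% of all genes tested lower. They are *Dnmt1*, the maintenance methyltransferase (18.6 and 18.9 FPKM against 8.09 and 7.32), *Uhrf1* (44.6 and 43.3 against 19.3 and 20.3) and the ubiquitin-conjugating enzyme *Ube2d3*. The fall of *Ube2d3* was small, from 504 to 505 FPKM over the DMSO libraries to 480 to 484. Among paralogues, *Padi4* fell, by 4.30 on the log2 scale in counts and from 3.13 and 2.23 to 0.10 and 0.40 in FPKM, a smaller ratio than that of the counts, *Padi3* rose, and *Tle4* rose 1.78-fold, opposite to *Tle6*. Of 16 further oocyte genes 6 were tested, and *Dppa3*, a maternal gene expressed again in pluripotent and germ cells, rose 3.65-fold, while *Zp3* (5.95 and 6.13 FPKM against 1.43 and 2.02) and *Zp2* (at least 13-fold lower), which encode proteins of the egg coat, fell.

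In 2iES cells, 6 members were tested, of 15511 genes, since *Nlrp2*, *Nlrp5* and *Nlrp14* did not reach 10 counts in 2 libraries. *Tle6*, *Khdc3*, *Zbed3*, *Nlrp4f* and *Ooep* fell, 5 of 6, with 28.1% of all genes tested lower and 26.5% higher. The median log2 fold change of the 6 was -0.96, against 0.03 over all genes tested. With the 2-fold change and FPKM cut-offs added, *Tle6*, *Khdc3* and *Zbed3* fell and no member rose, with 15.6% of all genes lower and 12.4% higher. *Tle6* had 8.07 and 5.21 FPKM with DMSO and 0.58 and 0.62 with dTAG13, in counts 159 and 118 against 13 and 5. The log2 change was -3.70 (standard error 0.39, 95% interval -4.62 to -2.77, adjusted p = 4.37e-04 by edgeR), a 13-fold fall that took *Tle6* below 1 FPKM.

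*Khdc3* had 24.2 and 21.1 FPKM with DMSO and 10.2 and 9.82 with dTAG13 (log2 fold change -1.24, standard error 0.15, adjusted p = 8.44e-04 by edgeR). *Zbed3* had 3.52 and 3.13 FPKM with DMSO and 1.41 and 1.77 with dTAG13 (-1.15, 0.23, 0.00533). *Ooep* had 103 and 106 FPKM with DMSO and 77.4 and 73.8 with dTAG13 (-0.50, 0.10, 0.00491), and *Nlrp4f* 21.9 and 32.3 against 18.7 and 18.2 (-0.76, 0.18, 0.0107). The groups of these 4 genes did not overlap, with the DMSO libraries higher in each, though how many of all genes separate this way was not counted. With 2 libraries a group these calls rest on few samples. Without dTAG13 replicate 1 the calls of *Zbed3*, *Ooep* and *Nlrp4f* were lost, at log2 changes of -0.94, -0.45 and -0.78. Without dTAG13 replicate 2 those of *Ooep* and *Nlrp4f* were lost, at -0.40 and -0.59. Each of these fits leaves 1 library in the dTAG13 group, so its spread comes from the DMSO group alone. No member rose by edgeR or DESeq2. *Padi6*, the 1 member with an unadjusted p-value under 0.05 in that direction, went the other way, with 0.05 and 0.17 FPKM with DMSO and 0.31 and 0.84 with dTAG13 (1.62, 0.63, 0.0661). It was called in the fit of all 18 libraries (0.0138). Without DMSO replicate 2, which leaves 1 library in that group, its log2 change was 2.66.

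In 2iES cells, 3 of 7 EPI markers fell and 4 were not called. The TE markers summed to 131 to 162 FPKM with DMSO and 163 to 170 with dTAG13, though of 5 tested 1 was called lower and 0 higher. Of 7 PrE markers, 6 were under 1 FPKM in each library, and of 4 tested 1 was called higher. ES cell markers summed to 379 to 405 FPKM with DMSO and 246 to 261 with dTAG13, with 2 of 5 called lower. The other 3 had positive log2 fold changes, and the median of the 5 was 0.03. Two-cell markers summed to 9.29 to 54.6 FPKM with DMSO and 39.9 to 116 with dTAG13, and all 5 that were tested had positive log2 fold changes (median 1.14), with *Zscan4d* called, at a mean of 4.18 and 16.3 FPKM. The part of these markers in the falls of the 5 members was not tested. *Uhrf1* (25.4 and 26.9 FPKM against 13.1 and 13.7) and *Dnmt1* (25.4 and 26.3 against 17.9 and 17) fell, 2 of 3 lattice partners, with 28.1% of all genes tested lower. Of the paralogues *Aes* fell 4.77-fold and *Tle4* rose 1.49-fold, and of the oocyte genes *Zp3* fell 4.03-fold and *Bcl2l10* rose 6.80-fold, from 0.37 and 0.24 to 2.46 and 1.85 FPKM. The plot of log2 fold changes sets the 4 stages side by side.

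**Figure D4:**
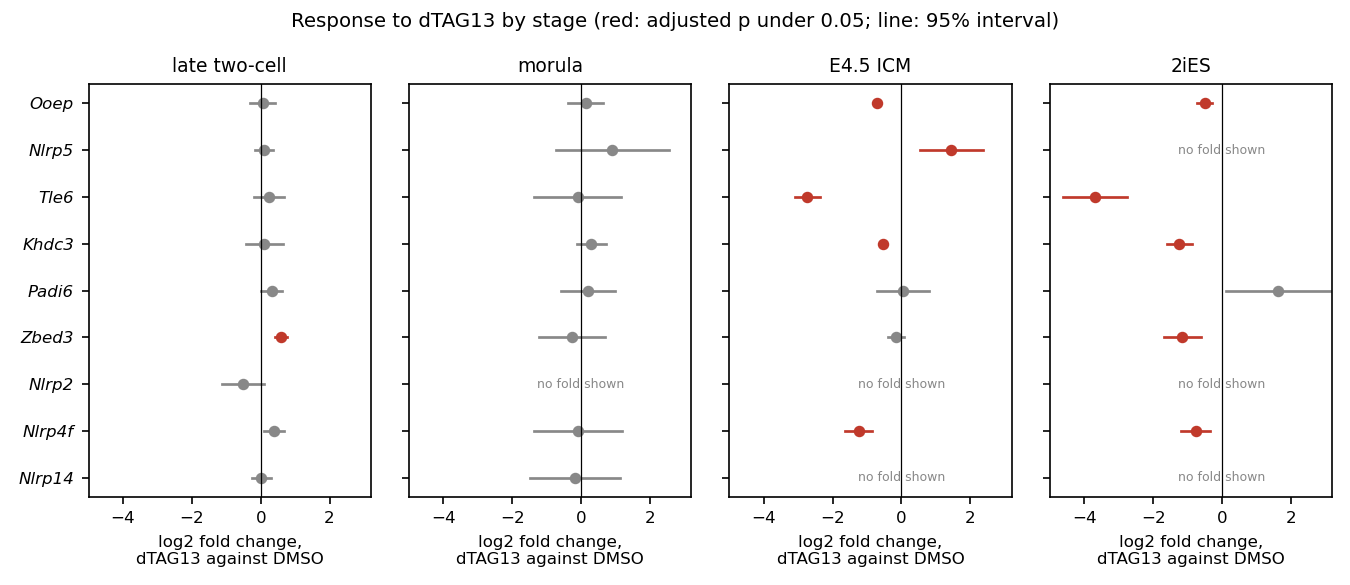
Points give the log2 fold change of dTAG13 against DMSO by edgeR for each gene at each stage and lines its 95% interval, in red where the adjusted p-value was under 0.05 and grey elsewhere, with no fold shown where a gene was not tested or a group was at 3 counts or fewer. *Zbed3* is the 1 red point at the late two-cell stage, morulae hold none, and *Tle6* lies farthest to the left in both the E4.5 ICM and 2iES cells.

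Whether the response differed between stages was tested as an interaction term in one fit of all 18 libraries by edgeR, over 21915 genes. The stages also differ in the time of treatment and, for 2iES cells, in dose and in cell source, which cannot be told apart from stage. The response of *Tle6* was higher at the late two-cell stage than in the E4.5 ICM by 2.95 on the log2 scale (standard error 0.38, adjusted p = 3.64e-05) and higher in morulae than in the E4.5 ICM by 2.7 (0.49, 9.95e-04). Of the 9 members, 6 had a higher response at the late two-cell stage than in the E4.5 ICM and 1 a lower one, *Nlrp5*, with 9.87% of all genes higher and 10.4% lower, and 4 had a higher response in morulae than in the E4.5 ICM, with 10.6% of all genes higher and 5.44% lower. Between the late two-cell stage and the morula no member differed, with 0.68% of all genes higher and 5.79% lower, 1 member, *Zbed3*, had an unadjusted p-value under 0.05, and DESeq2 called that gene. Between the E4.5 ICM and 2iES cells, 3 members had a higher response in the E4.5 ICM and 1, *Nlrp14*, a lower one, with 7.42% of all genes higher and 9.93% lower. The 3 are *Nlrp5*, *Zbed3* (0.95, 0.21, 0.00526) and *Khdc3* (0.66, 0.20, 0.0298). *Nlrp5* and *Nlrp14* had at most 8 counts in any 2iES library, under the count filter within that stage. They entered this fit through their counts at other stages. The responses of *Ooep* (-0.25, 0.22, 0.531), *Tle6* (0.91, 0.49, 0.223) and *Nlrp4f* (-0.53, 0.40, 0.428) did not pass the threshold, with 95% intervals of -0.72 to 0.23, -0.11 to 1.94 and -1.37 to 0.31.

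The profiles of the members over the 8 groups were compared on centred log2(TPM + 1) values. The 5 genes outside the lists nearest to the mean profile of the members, out of 18882 genes with a mean TPM of at least 1 in a group, were *Phf7*, *Zswim3*, *Gm12463*, *Rab3d* and *Hinfp*, at root-mean-square distances of 0.14 to 0.17. The members themselves lay farther from their own mean, from 0.42 for *Nlrp2* to 3.60 for *Khdc3*. *Nlrp5* and *Padi6* were the 2 members most like each other (0.66), and *Khdc3* and *Zbed3* the least alike (5.02). With a pseudocount of 0.1 in place of 1, 2 of the 5 genes were the same.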

How the data were processed

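RNA of embryos and cells was made into libraries with SMART-Seq v4, a kit that primes on poly(A) tails, and Nextera XT, which does not keep strand. The authors trimmed the reads (Trimmomatic 0.39), mapped them with STAR to GRCm38, estimated gene levels with RSEM, and deposited expected counts, TPM and FPKM for each of 55385 genes. The genome was downloaded from Ensembl, and the release of the gene annotation given to RSEM is not given in the sources used here. Identifiers were named from GENCODE M21, which held 54487 with their version and 55144 in all. The chromatin libraries of the series (27) were left out.

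The members and gene lists were chosen with earlier results of these data known. Groups follow the labels. Expected counts were rounded, scaled by TMM and fitted in R 4.3.3 by edgeR 4.0.16, which calls limma 3.58.1. Quasi-likelihood p-values were adjusted by Benjamini-Hochberg over all genes that had 10 or more counts in the number of libraries of the smaller group. Intervals use the degrees of freedom of each gene's fit. Overlap between groups was recorded for named genes only, so its share over all genes is not known. Genes were called at an adjusted p-value under 0.05, and a second rule added the study's cut-offs, a 2-fold change and a mean FPKM of 1 or more in either group. DESeq2 1.42.0, other scalings, filters and replicate blocks were tried. The script was tested on simulated data with 200 changed genes. Named genes are the 9 members, *Gabpa*, up to 3 called genes with the largest change per list and stage, and the 5 genes nearest to the mean profile. Genes sharing sequence with members, single markers, *Nlrp9c* and values of list genes at other stages were named after their values were seen. Nothing in the labels says that replicates came from separate cultures or sets of embryos, so p-values may measure technical spread, and floors (3 counts) cover counting error only. Tables and figures used Python 3.11.15, pandas 2.3.3, numpy 2.4.6 and matplotlib 3.10.9.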

Additional observations from a re-analysis of the deposited data

Results flagged for a closer look

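No group holds 4 or more libraries, so single libraries were not tested as outliers, and the results flagged are differences between stages in the response to dTAG13, tested as interaction terms by edgeR with adjustment over 21915 genes. Values are the log2 response at the first stage minus that at the second. *Tle6* differed by 2.95 between the late two-cell stage and the E4.5 ICM and by 2.7 between the morula and the E4.5 ICM. *Ooep* differed by 0.74 and 0.91 in the same comparisons, and *Khdc3* by 0.61 and 0.89. *Khdc3* also differed by 0.66 between the E4.5 ICM and 2iES cells. *Zbed3*, which rose at the late two-cell stage, differed by 0.72 between that stage and the E4.5 ICM and by 0.95 between the E4.5 ICM and 2iES cells.

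*Nlrp4f* differed by 1.61 between the late two-cell stage and the E4.5 ICM in counts, though its FPKM overlapped between the groups of the E4.5 ICM. *Nlrp14* differed by 7.21, 7.12 and -7.36 (late two-cell stage minus E4.5 ICM, morula minus E4.5 ICM, E4.5 ICM minus 2iES), values that rest on 0 counts in the dTAG13 libraries of the E4.5 ICM and are no bounds. *Nlrp5* differed by -1.37 between the late two-cell stage and the E4.5 ICM and by 4.35 between the E4.5 ICM and 2iES cells, where it had at most 20.7 counts in any library of the E4.5 ICM and at most 8 in 2iES cells.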

How the results depend on the processing

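Over all comparisons, alternatives gave 513 values for member genes called in the reported fits. Of these, 500 kept their direction and call, 13 kept their direction only, and none reversed. Of 360 values for genes not called, 11 passed the threshold and 21 changed sign without passing it. Replicate numbers gave no strong pairing of the libraries. Same-numbered deviations correlated by 0.05 to 0.11 at the late two-cell stage and by 0.03 in morulae, each library best with its own number at both stages. The correlation was -0.05 in the E4.5 ICM and -0.20 in 2iES cells. With the replicate block, 0 in place of 1 member was lower in the late two-cell minus E4.5 ICM difference and 0 in place of 1 in the E4.5 ICM minus 2iES difference (*Nlrp5*, adjusted p = 0.0585, and *Nlrp14*, 0.0583), and all other member counts stayed as reported. The crossed pairing in 2iES cells, chosen after seeing the data, gave 5 lower and 0 higher.

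At the late two-cell stage 2 members rose in place of 1 with library totals, no count filter or DESeq2 (*Nlrp4f* added), 1 to 2 when leaving out single libraries, and 0 with a fold change of 2 and a mean FPKM of 1. In the E4.5 ICM, 0 rose in place of 1 with DESeq2 and under either rule with a fold change of 2, which also gave 2 lower in place of 5, and leaving out libraries gave 0 to 1 higher and 4 to 5 lower. In 2iES cells, 1 member rose in place of 0 in the fit of all 18 libraries, 3 fell in place of 5 with the fold change rules, and leaving out libraries gave 0 to 1 higher and 2 to 5 lower. Between the E4.5 ICM and 2iES with DMSO, 1 fell in place of 5 with the fold change rule and 3 to 5 when leaving out libraries. In the late two-cell minus morula difference, 1 member was higher in place of 0 with library totals or DESeq2 (*Zbed3*). The causes were not tested. Library totals shifted the median of all genes by 0.24 and -0.20 in the differences that involve morulae and by -0.47 and 0.10 in the DMSO steps after the morula, without changing the direction of a called member. Low counts limit what could be tested, with 3 of the 9 members under the count filter in 2iES cells and 1 each in morulae and the E4.5 ICM, and *Nlrp5*, *Tle6*, *Zbed3*, *Nlrp4f* and *Nlrp14* were tested in morulae on 4 to 42 counts in the DMSO libraries.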
